A study of Oryza sativa with 26 samples.

Results

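The lamina joint is the band of tissue between the blade and the sheath of a rice leaf. It was profiled here in 6 arrays taken while leaf angle was widening, the step that the labels call stage 5, out of 26 arrays in the series. All arrays of that stage were used, 2 from each of 3 leaf positions. The labels count leaves back from the last one, so the second joint lies next to the last joint and the third joint follows it. The plants were japonica rice of the cultivar Zhonghua 11, with no mutation, transgene or treatment named in the labels. They grew in a greenhouse with 12 h of light at 28 °C and 12 h of dark at 22 °C. Stage 5 was reached 70 days after sowing in the last joint, 65 days in the second joint and 60 days in the third joint. All 3 groups were described as white, with an opening leaf angle. The tissue was cut out by hand, so each sample mixes epidermis, vascular, supporting and parenchyma cells. The other 20 arrays hold the same joints at stages 2, 4 and 6 and a piece of the third leaf at stage 4, and they share the estimate of variance. The labels call the paired arrays biological replicates without naming separate plants. The p-values therefore measure only the spread between these samples, which may be technical.

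In grasses the lamina joint works as a hinge. A leaf bends outward when cells on the upper side of the joint elongate more than those on the lower side, and brassinosteroids, auxin and gibberellin are known to act on that growth. As background, the leaves of one shoot also differ in physiological age and in when they form relative to the switch from vegetative growth to flowering: the last leaf forms just before the panicle.

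The values are log2 expression levels per probe set, and a probe set is the group of short probes on the array that reads 1 transcript. Differences are on the log2 scale, the joint named first minus the joint named after it, many with the standard error of the fit. Here called means a limma p, adjusted by Benjamini-Hochberg over 57258 probe sets, under 0.05 together with a difference of at least 2-fold. In bulk tissue a lower value can come from fewer cells of a type or from less RNA per cell, which cannot be told apart.

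The arrays differed in ways that touch the results. The 3′ minus 5′ difference of the Gapdh control probe sets, which grows as RNA is degraded or less completely copied, was 2.93 and 3.33 in the last joint, 1.92 and 1.81 in the second joint and 1.86 and 2.02 in the third joint. Arrays of the last joint thus stood apart from the other 4 arrays of stage 5. Over the whole series it was 2.93 to 3.78 in 9 arrays, which are these 2, all 6 of stage 6 and 1 of the third joint at stage 4, and 1.47 to 2.09 in the other 17. Replicate 1 of the second joint also stood apart. Its upper quartile was 7.50 against 7.90 to 8.08 in the other 25 arrays, and it correlated with replicate 2 of its own group at r = 0.971 across probe sets, below the 0.992 of the last pair and the 0.993 of the third pair. Results that rest on the second joint are given with and without it.

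The last joint was first set against the third joint. Of 57258 probe sets 550 were called, 0.961% of those tested, with 224 higher in the last joint (0.391%) and 326 lower (0.569%). The genes that were higher included the flowering regulator MADS34, the redox gene GRXC1, the kinase gene CIPK14, the proline gene P5CS2 and the Rubisco gene RBCS. Those that were lower included expansins, kinesins, a mannan synthase gene, Aux/IAA genes and the flowering promoter MADS50. The rule for naming genes gave 41 called in this contrast.

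**Figure D1:**
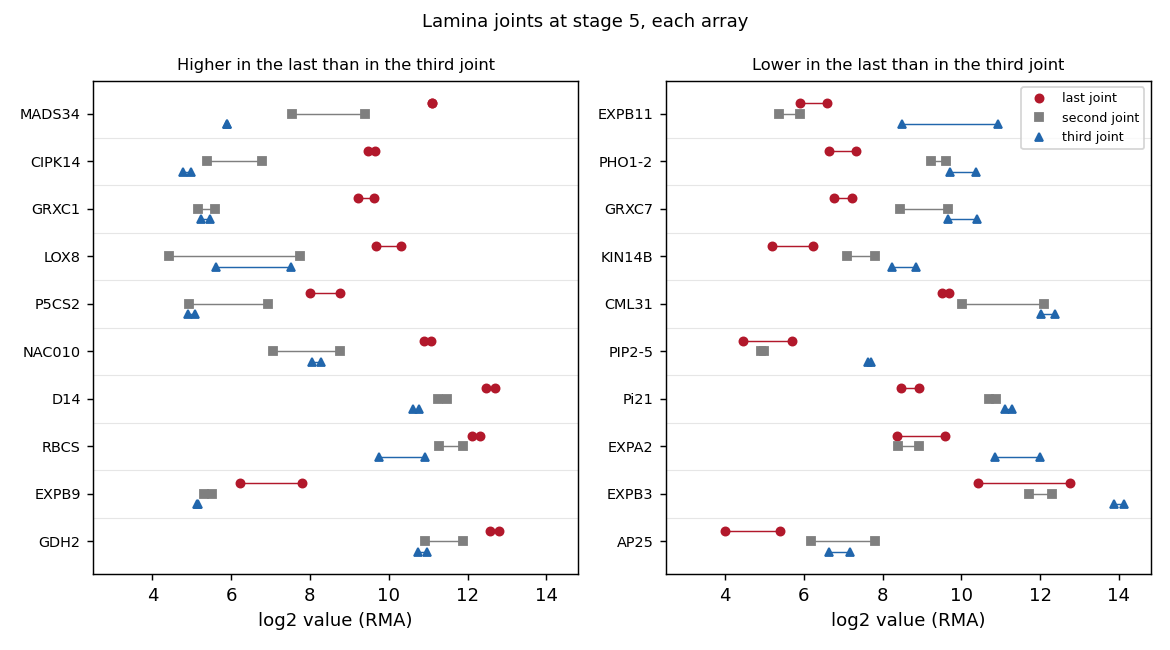
Log2 values of each stage 5 array (x axis) for 10 genes higher (left) and 10 genes lower (right) in the last than in the third joint, with circles for the last joint, squares for the second joint and triangles for the third joint; each line joins the 2 arrays of a group. MADS34 sits at 11.11 and 11.09 in the last joint against 5.90 in both arrays of the third joint, and the wide pairs of EXPB3 and LOX8 show how far 2 arrays of a joint can lie apart.

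The largest difference of a named gene was that of MADS34. It encodes a SEPALLATA-like factor known for its role in inflorescence and spikelet meristems. Its level was 11.11 and 11.09 in the last joint, 7.54 and 9.39 in the second joint and 5.90 and 5.90 in the third joint. The 3 joints did not overlap and the level stepped down with each leaf further from the last. Lack of overlap was common, however. Of all probe sets tested, 49.2% had no overlap between the last and the third joint. The share was 41.3% for last minus the second and 38.7% for second minus the third. The share without overlap among all 3 joints was not counted. Lack of overlap, here or below, thus does not by itself set a gene apart. The last joint exceeded the third joint by 5.20 ± 0.64, a 36.7-fold difference (limma adjusted p = 0.00204). The steps between neighbours were 2.63 for last minus the second (limma adjusted p = 0.0608) and 2.56 for second minus the third (limma adjusted p = 0.0881), neither past the threshold. Leaving out any 1 of the 4 arrays kept the call, with differences of 5.19 to 5.21 and a highest adjusted p of 0.0378 in limma.

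MADS15, an APETALA1-like factor that marks the floral transition, had values of 11.34 and 11.30 in the last joint, 9.40 and 9.51 in the second joint and 7.99 and 8.54 in the third joint. The groups did not overlap, but its probe set with the highest mean was not called between the last and the third joint (3.06, limma adjusted p = 0.11). Of its 3 other probe sets, those at 2.87 and 1.11 passed the threshold (limma adjusted p = 0.0497 and 0.032), and the one at 2.37 did not (limma adjusted p = 0.0864). MADS14, a close relative, had 12.14 and 12.07 in the last joint, 11.67 and 11.71 in the second joint and 10.47 and 10.63 in the third joint (last minus the third 1.55, limma adjusted p = 0.357). MADS18, the third relative of that kind, was 11.24 and 11.38 in the last joint against 12.06 and 12.08 in the third joint, which ran the other way without a call (limma adjusted p = 0.359). Over these 4 flowering MADS genes 1 was called and the median last minus the third difference was 2.31. Over all 17905 genes on the array the median was 0.02, and 1.61% were called. No list was tested as a set, so a few calls in a list, here or below, speak for those genes and not for the list.

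MADS50 and MADS47 ran opposite to MADS34. MADS50, a SOC1-like promoter of flowering, read 6.87 and 7.05 in the last joint, 7.27 and 7.83 in the second joint and 9.15 and 8.49 in the third joint. The 3 joints did not overlap, and the last joint was 3.63-fold lower than the third joint (-1.86 ± 0.29, limma adjusted p = 0.00638). MADS47, an SVP-like factor known as a negative regulator of brassinosteroid responses, read 7.65 and 7.85 in the last joint, 8.59 and 8.88 in the second joint and 9.03 and 9.09 in the third joint. It was lower in the last than in the third joint by a similar order of steps (-1.31 ± 0.21, limma adjusted p = 0.00742), and its last minus the second difference of -0.98 passed the p threshold but not the 2-fold limit (limma adjusted p = 0.0404). MADS47 lost its call when any 1 of the 4 arrays was left out (adjusted p up to 0.109), and MADS50 when replicate 2 of the last joint or replicate 1 of the third joint was (up to 0.098), with differences of -2.19 to -1.53 for MADS50. Of the 8 vegetative MADS genes these 2 were called, and the median was -0.38. The 13 floral organ MADS genes, which build petals, stamens, carpels and spikelet organs, had no call and a median of -0.01, and their mean levels of 4.62 to 4.75 per array were near the low end of the array's range.

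The same flowering MADS genes can be followed through the other stages. MADS34 averaged 10.62, 11.74, 11.10 and 11.18 in the last joint at stages 2, 4, 5 and 6, and 4.12, 4.42, 5.90 and 6.16 in the third joint. The last joint was thus high from stage 2 on and the third joint low throughout, and the last minus the third difference was called at stage 4 (7.32, limma adjusted p = 7.66e-05) and at stage 6 (5.01, limma adjusted p = 0.00395) as well. In the second joint MADS34 averaged 5.04 at stage 2 and 9.53, 8.46 and 9.67 at stages 4, 5 and 6. The last minus the third difference of MADS34 at stage 5 was lower than at stage 4 by more than its standard error but did not pass the test after adjustment (-2.12 ± 0.90, limma adjusted p = 0.354), nor did its difference from stage 6 (0.18 ± 0.90, limma adjusted p = 0.995). MADS15 showed 6.57 at stage 4 (limma adjusted p = 0.0025), beside its 3.06 at stage 5.

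**Figure D2:**
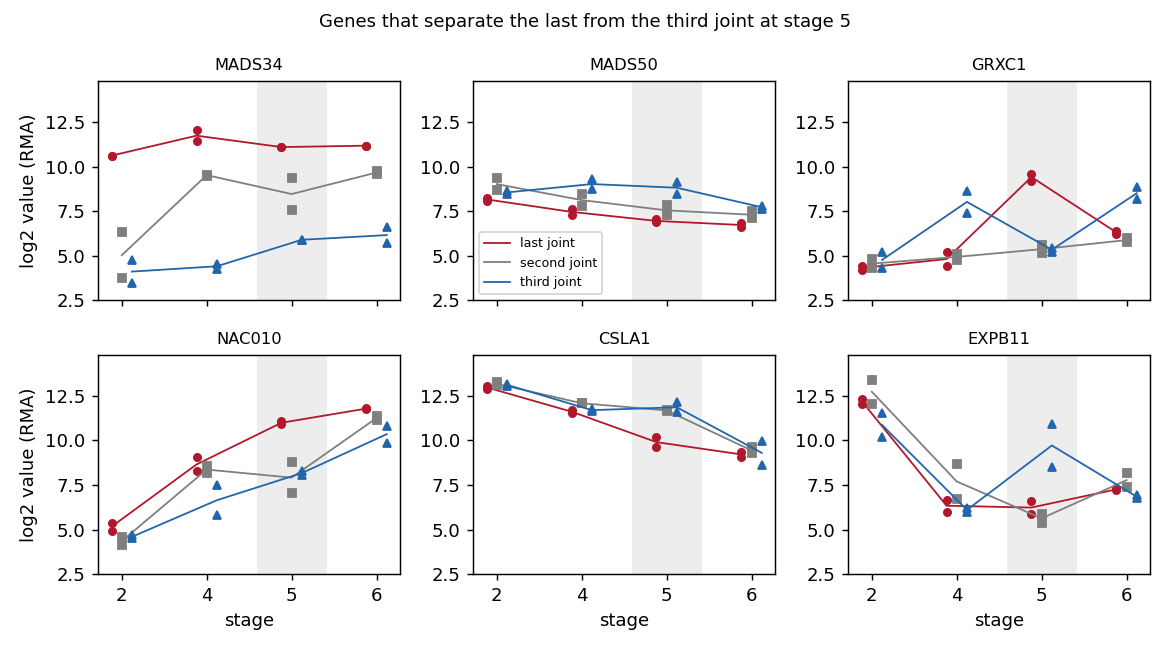
Log2 values by stage (x axis) for 6 genes in the last joint (circles), the second (squares) and the third (triangles); points are arrays, lines join group means and the grey band marks stage 5. MADS34 holds its order, with the last joint highest and the third joint lowest, at every stage shown, GRXC1 in the last joint stands out at stage 5, CSLA1 is lower in the last joint than in the others at stage 5, and EXPB11 in the third joint is higher at stage 5 than at stages 4 and 6.

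GRXC1 was also among the higher genes. It encodes a glutaredoxin, a small protein that reduces disulphides with glutathione. It read 9.22 and 9.61 in the last joint, against 5.15 and 5.60 in the second joint and 5.46 and 5.22 in the third joint. The last joint alone was high. It exceeded the third joint by 4.08 ± 0.38, a 16.9-fold difference (limma adjusted p = 0.000198), and the second joint by 4.04 ± 0.38, a 16.5-fold difference (limma adjusted p = 0.000449). The call held whichever array of these groups was left out, with a highest adjusted p of 0.0132 in limma over both contrasts. Its relative GRXC7 went the other way, at 7.22 and 6.77 in the last joint and 9.66 and 10.40 in the third joint (-3.04 ± 0.55, limma adjusted p = 0.0156).

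CIPK14, a protein kinase that works with calcium-sensing CBL proteins, read 9.47 and 9.65 in the last joint, 5.40 and 6.78 in the second joint and 4.78 and 4.98 in the third joint. It was 25.6-fold higher in the last than in the third joint (4.68 ± 0.86, limma adjusted p = 0.0162). P5CS2, an enzyme of proline synthesis, read 8.77 and 8.0 in the last joint against 4.91 and 5.07 in the third joint (3.39 ± 0.61, limma adjusted p = 0.0132). The second joint was split for both, with replicate 1 near the third joint and replicate 2 higher. LOX8, a lipoxygenase of the kind that feeds oxylipin synthesis, read 10.31 and 9.67 in the last joint, 4.41 and 7.74 in the second joint and 7.52 and 5.61 in the third joint. Its arrays disagree within the lower groups, and the difference of 3.42 ± 0.78 only just passed (limma adjusted p = 0.0439). Leaving out any 1 array of the last or the third joint ended the calls of CIPK14, P5CS2 and LOX8, at adjusted p of up to 0.177, 0.138 and 0.422 in limma.

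NAC010, a member of the NAC family of plant transcription factors, read 11.09 and 10.89 in the last joint against 7.06 and 8.77 in the second joint and 8.06 and 8.28 in the third joint. It was 7.06-fold higher in the last than in the third joint (2.82 ± 0.50, limma adjusted p = 0.0133) and 8.42-fold higher than in the second joint (3.07 ± 0.50, limma adjusted p = 0.0117). Its family members NAC067 and NAC068 were lower in the last than in the third joint, by -1.93 (limma adjusted p = 0.0193) and -1.41 (limma adjusted p = 0.0275). The 8 NAC factors therefore held 1 call up and 2 down, with a median of -0.26. Leaving out any 1 of the 4 arrays lost the last minus the third calls of NAC010 (adjusted p up to 0.143), NAC067 (up to 0.228) and NAC068 (up to 0.245). When the Gapdh difference entered the fit as a covariate, NAC010 and NAC067 were among the 4 named genes that kept their call, with GRXC1 and MADS34.

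Single members of several metabolic lists were called higher. These were 1 of 19 nitrogen recycling genes, 1 of 25 sucrose and starch enzymes and 1 of 7 green leaf markers, where 1.61% of all genes were called. GDH2, a glutamate dehydrogenase, read 12.79 and 12.58 in the last joint and 10.97 and 10.74 in the third joint (1.83 ± 0.36, limma adjusted p = 0.0202). D14, the strigolactone receptor, read 12.48 and 12.69 in the last joint, 11.48 and 11.25 in the second joint and 10.76 and 10.62 in the third joint (1.89 ± 0.42, limma adjusted p = 0.0392). Its 3 groups did not overlap. RBCS, the small subunit of Rubisco, read 12.32 and 12.11 in the last joint, 11.87 and 11.27 in the second joint and 10.93 and 9.74 in the third joint (1.88 ± 0.43, limma adjusted p = 0.0442). RIBA3, of riboflavin synthesis, read 8.59 and 8.53 in the last joint, 6.34 and 6.60 in the second joint and 6.89 and 7.10 in the third joint. It was higher in the last joint than in the third joint (1.56 ± 0.24, limma adjusted p = 0.00518) and than in the second joint (2.09 ± 0.24, limma adjusted p = 0.00139).

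Smaller rises came from APX8, an ascorbate peroxidase, at 1.38 (limma adjusted p = 0.0219), CIN4, a cell-wall invertase, at 1.01 (limma adjusted p = 0.042), and PIN4, of the auxin efflux family, at 1.21 (limma adjusted p = 0.0303). EXPB9, a beta-expansin, was 1.88 higher (limma adjusted p = 0.0157), although its arrays in the last joint differed, at 6.22 and 7.81 against 5.12 and 5.15 in the third joint. Without replicate 2 of the last joint its difference was 1.08. RIBA3 and EXPB9 kept the last minus the third call without replicate 1 of the last joint and lost it without each of the other 3 arrays. RBCS kept it only without replicate 1 of the third joint, and GDH2, D14, APX8, CIN4 and PIN4 lost it without any 1 of the 4 arrays. The highest adjusted p among these cases was 0.473, for CIN4.

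The tissue can be set against markers of green leaf. RBCS was the 1 call among 7 green leaf markers, and the median over the 7 was 0.95 for last minus the third and 0.17 for last minus the second. Their mean level per array was 9.57 and 9.07 in the last joint, 9.21 and 9.54 in the second joint and 9.26 and 8.25 in the third joint, against 11.28 and 11.19 in the leaf piece at stage 4. All 6 joint arrays were below both leaf arrays, and the array of the third joint with 8.25 was the lowest. LG1, which is needed to form the ligule and lamina joint, read 9.35 and 9.55 in the last joint, 7.52 and 8.79 in the second joint and 8.08 and 8.54 in the third joint, against a mean of 5.93 in the leaf piece. It was above the leaf in every joint and was not called between joints (last minus the third 1.14, limma adjusted p = 0.353). The part of leaf tissue in the RBCS difference was not tested.

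Some expansin genes were among the lower ones. Expansins loosen cell walls as cells enlarge. EXPB11 read 6.59 and 5.89 in the last joint, 5.90 and 5.37 in the second joint and 8.50 and 10.94 in the third joint, where both arrays were higher than any other. The last joint was 11.2-fold lower than the third joint (-3.48 ± 0.72, limma adjusted p = 0.0277) and the second joint 16.99-fold lower (-4.09 ± 0.72, limma adjusted p = 0.0207). EXPA2 read 9.58 and 8.36 in the last joint, 8.92 and 8.38 in the second joint and 10.86 and 11.99 in the third joint, which again gave 2 calls, for last minus the third (-2.46, limma adjusted p = 0.0178) and second minus the third (-2.78, limma adjusted p = 0.0141).

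EXPB3 was lower in the last joint at 12.75 and 10.42 against 13.87 and 14.12 in the third joint (-2.41, limma adjusted p = 0.0422), with a gap between its 2 arrays nearly as large as the difference itself. EXPA6 was lower at 7.58 and 8.11 against 9.06 and 9.65 (-1.51, limma adjusted p = 0.0266). In all, 2 of 14 alpha-expansins were lower in the last joint and none higher, with a median of -0.09, and 2 of 15 beta- and like-expansins were lower and 1 higher, with a median of -0.28. Most members of both families were thus not called. Leaving out replicate 2 of the last joint or replicate 2 of the third joint ended the last minus the third calls of all 4 of these expansins, at adjusted p of up to 0.298 for EXPA6, 0.292 for EXPA2, 0.341 for EXPB11 and 0.528 for EXPB3, and the EXPB3 difference ranged between -3.58 and -1.25 with 1 of the 4 arrays left out.

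CSLA1, of the family that makes mannan, read 10.21 and 9.61 in the last joint against 11.67 and 11.69 in the second joint and 11.59 and 12.13 in the third joint. The last joint was low and the other two joints overlapped. The difference was -1.95 ± 0.30 from the third joint (limma adjusted p = 0.00597) and -1.78 ± 0.30 from the second joint (limma adjusted p = 0.0137). CSLC2, of the family that makes the xyloglucan backbone, was lower by -1.0 than in the third joint (limma adjusted p = 0.0275). The wall enzyme gene GLU2, an endoglucanase, read 11.30 and 11.09 in the last joint and 12.41 and 12.66 in the third joint (-1.34, limma adjusted p = 0.0253). None of the 6 primary wall cellulose synthase genes was called, but all 6 were lower, with a median of -0.72. Without replicate 2 of the last joint or replicate 2 of the third joint CSLA1 lost its call (adjusted p up to 0.144), and CSLC2 and GLU2 lost theirs without any 1 of the 4 arrays (up to 0.273 and 0.275).

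The called motor and tubulin genes were also lower in the last joint. KIN14B, a kinesin, read 6.22 and 5.19 in the last joint, 7.11 and 7.81 in the second joint and 8.25 and 8.84 in the third joint. It was 7.17-fold lower in the last than in the third joint (-2.84 ± 0.54, limma adjusted p = 0.0178). KIN13B at -2.07 (limma adjusted p = 0.0176) and KIN5A at -1.11 (limma adjusted p = 0.0335) were lower too. Thus 3 of 34 kinesins were called, all lower, around a median of -0.07, where 1.61% of all genes were called. TUB5, a beta-tubulin, was the 1 call among 9 tubulins, at 11.67 and 11.58 in the last joint and 12.57 and 12.87 in the third joint (-1.09, limma adjusted p = 0.0326). The tubulin median was -0.60. Without replicate 2 of the last joint, replicate 1 of the third joint or replicate 2 of the third joint none of these 4 genes was called, at adjusted p of up to 0.358. Neither the 35 cyclins and cyclin-dependent kinases nor the 30 DNA replication genes held a call, with medians of -0.10 and 0.07.

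Auxin response genes were few. IAA13 and IAA30 encode Aux/IAA repressors, which auxin removes. IAA30 read 11.08 and 10.003 in the last joint and 12.03 and 12.27 in the third joint (-1.61, limma adjusted p = 0.0262). IAA13 read 12.22 and 11.61 in the last joint, 13.16 and 13.33 in the second joint and 12.95 and 13.17 in the third joint, lower in the last joint than in either (-1.15 and -1.33, limma adjusted p = 0.0203 and 0.0121). They were 2 of 26 Aux/IAA genes, whose median was -0.21. No auxin response factor among 17 and no GH3 enzyme among 9 was called. LA, the LAZY1 protein that links gravity to shoot and tiller angle, read 10.94 and 10.94 in the last joint, 11.45 and 11.56 in the second joint and 12.03 and 12.11 in the third joint. Its levels were higher with each leaf further from the last, without overlap, and only the last minus the third difference was called (-1.13 ± 0.25, limma adjusted p = 0.0412). Each lost the last minus the third call without replicate 2 of the last joint, at adjusted p of up to 0.397 for IAA30, 0.326 for IAA13 and 0.3 for LA.

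Other genes that were lower in the last joint span transport, defence and pigment. PHO1-2, which exports phosphate, read 7.32 and 6.63 in the last joint and 10.36 and 9.72 in the third joint (-3.06, limma adjusted p = 0.021). CML31, a calmodulin-like calcium sensor, read 9.50 and 9.69 in the last joint and 12.02 and 12.39 in the third joint (-2.61, limma adjusted p = 0.0217). PIP2-5, a plasma membrane aquaporin, read 4.46 and 5.70 in the last joint, 5.00 and 4.91 in the second joint and 7.71 and 7.63 in the third joint. It was lower than in the third joint in both other joints (-2.59 and -2.71, limma adjusted p = 0.0352 and 0.0413). SGR, which starts chlorophyll breakdown, read 10.60 and 10.75 in the last joint, 12.20 and 11.70 in the second joint and 12.38 and 12.55 in the third joint (-1.79, limma adjusted p = 0.0206).

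Pi21, known for its part in blast susceptibility, was lower by -2.51 (limma adjusted p = 0.0214), AP25, an aspartic protease, by -2.22 (limma adjusted p = 0.0373), OPR5, of the oxophytodienoate reductase family, by -1.92 (limma adjusted p = 0.0394) and GLO3, a glycolate oxidase, by -1.0 (limma adjusted p = 0.0328). Of 38 jasmonate genes LOX8 was higher and OPR5 lower, with a median of -0.20. These genes and the 4 of the paragraph above lost the last minus the third call without replicate 2 of the last joint, without replicate 1 of the third joint and without replicate 2 of the third joint. AP25 alone kept it without replicate 1 of the last joint, and the highest adjusted p among them was 0.486. The AP25 difference lay between -2.92 and -1.52 with 1 array left out.

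Some lists had medians apart from 0 with no member past the threshold. The 18 diterpenoid synthesis genes, which make phytoalexins and related compounds, had a median last minus the third difference of 0.81 with 16 positive, and no member was called. Their mean level per array was 7.65 and 8.37 in the last joint and 7.60 and 7.04 in the third joint. The lower array of the last joint was thus nearly level with the higher array of the third joint. The 11 chitinases and pathogenesis-related genes had a median of 0.79 with 8 positive and no call. Their means per array were 8.85 and 8.96 in the last joint and 8.56 and 7.96 in the third joint. Over all genes the median was 0.02. No member was called among 17 brassinosteroid signalling genes, with a median of -0.12, 12 gibberellin genes, at -0.05, 11 ethylene genes, at 0.03, or 29 cytokinin genes, at -0.17.

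Genes known to set leaf angle through brassinosteroids read as follows. BRI1, the receptor, was 10.80 and 10.36 in the last joint, 10.98 and 11.16 in the second joint and 11.05 and 11.29 in the third joint (last minus the third -0.59 ± 0.31, limma adjusted p = 0.486). BZR1, the transcription factor at the end of the pathway, differed by -0.26 ± 0.23 and its inhibitory kinase GSK2 by -0.55 ± 0.41 between the last and the third joint, with limma adjusted p of 0.759 and 0.693. BU1, a helix-loop-helix protein that widens leaf angle, read 7.61 and 6.59 in the last joint, 5.47 and 7.06 in the second joint and 5.79 and 6.66 in the third joint, with wide overlap (limma adjusted p = 0.556). IBH1, LIC and RGA1 differed by -0.12, -0.05 and 0.16 between the last and the third joint, and D11 and CYP85A1, of brassinosteroid synthesis, by -0.34 and 0.07. None was called in any of the 3 contrasts. The standard errors of 0.21 to 0.53 leave differences of 2-fold within reach of error for the noisier ones.

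**Figure D3:**
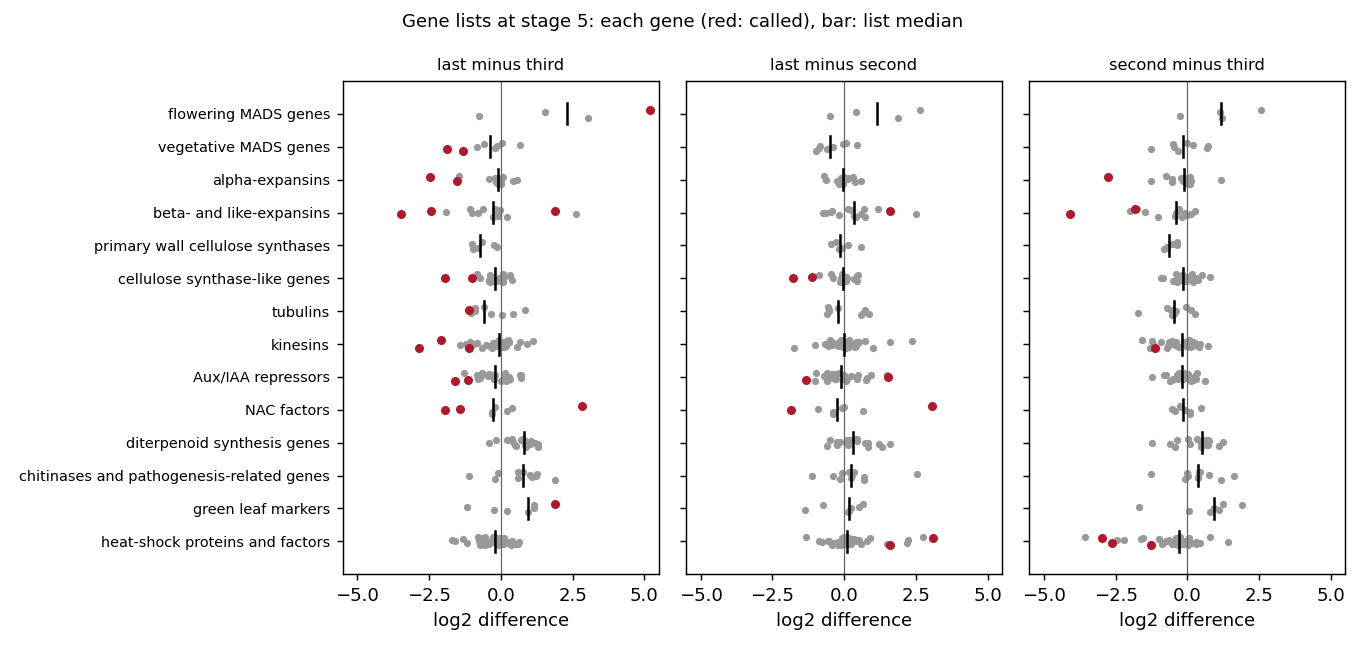
Log2 differences (x axis) of every gene in 14 lists for the 3 contrasts of stage 5, with red points called, grey points not called and a black bar at each list's median. Red points lie left of 0 for kinesins, tubulins and cellulose synthase-like genes in last minus the third, and the red heat-shock genes lie right of 0 in last minus the second and left of 0 in second minus the third.

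Other probe sets of a gene did not always give the same difference. In last minus the third the other probe sets of PHO1-2 gave -0.22 and -0.22, those of GDH2 0.20 and 0.51, those of P5CS2 0.41, 0.74 and 0.19, and that of RIBA3 0.36, none of them called. The other probe set of OPR5 gave -1.21 without a call, and of the 3 others of RBCS 1 passed (1.33, limma adjusted p = 0.0499) and those at 0.83 and 0.20 did not. Those of SGR and Pi21 were called too, at -2.11 and -2.05 (limma adjusted p = 0.00994 and 0.032). In second minus the third the other probe set of HSP81-1 ran the other way, at 0.42 without a call, that of CAD8C gave -0.03, that of CIPK7 1.01 and that of HSF1 -2.42, none of them called. In last minus the second the other probe set of IAA31 gave -0.12, opposite in sign, and those of HSP81-1 and RIBA3 0.59 and 0.32, none of them called. For APR-like1 1 of its 2 other probe sets was called (2.53, limma adjusted p = 0.0334), beside 0.40 in the one left.

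These calls depended on single arrays. Of 550 probe sets called between the last and the third joint 10 were called whichever of the 6 arrays of stage 5 was left out. Among named genes they were GRXC1, MADS34 and PLA2-III, which was picked after its values were seen and read 3.45 and 4.27 in the last joint against 6.02 and 5.76 in the third joint (-2.03, limma adjusted p = 0.0026). Of the 41 named genes 13 kept the call without replicate 1 of the last joint, 2 without replicate 2 of the last joint, 6 without replicate 1 of the third joint and 3 without replicate 2 of the third joint. All 41 kept their sign each time. For a gene whose arrays do not overlap between the groups, leaving out 1 array cannot reverse the sign. Many of these genes were named for that lack of overlap, so the kept sign is no separate check. With the Gapdh difference as a covariate 34 probe sets were called, and 4 of the 41 named genes. The median size of the 41 differences was 1.93 with the covariate and 1.89 without it, and all 41 kept their sign. Within stage 5 the covariate goes with the last joint, so the fall in calls cannot decide the part of RNA quality. The part of RNA quality in the other differences was not tested further. At the third joint of stage 4, where replicate 2 had a Gapdh difference of 3.78 and replicate 1 of 1.95, the difference between these arrays correlated with last minus the third at r = 0.02 across 57258 probe sets. With last minus the second and second minus the third it correlated at r = -0.07 and 0.11. A single pair of arrays from another stage cannot decide the part of RNA quality at stage 5.

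**Figure D4:**
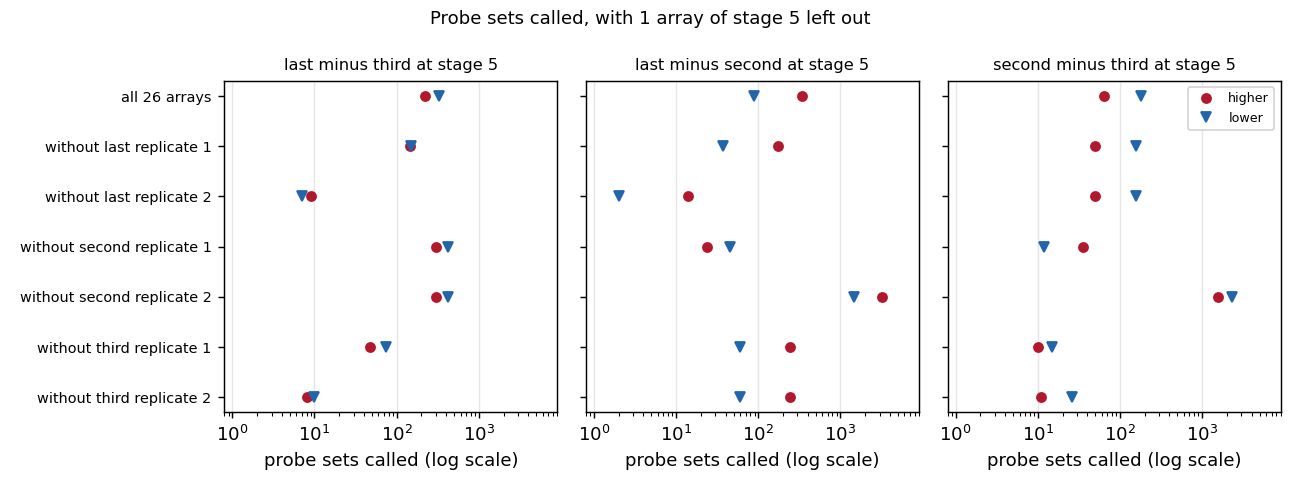
Number of probe sets called (log axis) in each contrast of stage 5 with all arrays and with each array of stage 5 left out. The last minus the third count falls to 16 without replicate 2 of the last joint, and the counts that involve the second joint run up to 4630 when its replicate 2 is left out and down to 69 and 47 without its replicate 1.

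The last minus the third difference at stage 5 was not the one seen at other stages for all genes. Across 57258 probe sets it correlated with the last minus the third difference at stage 4 at r = -0.00 and at stage 6 at r = 0.35, comparisons with no array in common. At stage 4 241 probe sets were called (0.421%) and at stage 6 178 (0.311%). Of the 224 higher at stage 5, 11 were also among the 116 higher at stage 4 (0.203%) and 6 among the 125 lower there (0.218%). Of the 326 lower, 15 were also lower at stage 4 and none was higher. At stage 6, where 92 were higher (0.161%) and 86 lower (0.15%), 14 of the 224 were also higher and 2 were lower, and 7 of the 326 were also lower and none was higher. The difference between the contrasts was called for 308 probe sets against stage 4 (0.538%), 145 positive (0.253%) and 163 negative (0.285%), and for 70 against stage 6 (0.122%), 40 positive (0.0699%) and 30 negative (0.0524%). The first count was 5 without replicate 2 of the third joint at stage 5 and 915 without replicate 1 of the third joint at stage 4, and the other was 4 without replicate 2 of the last joint at stage 5.

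GRXC1 changed sign between stages. It averaged 4.82 in the last joint and 8.03 in the third joint at stage 4, 9.42 and 5.34 at stage 5, and 6.31 and 8.51 at stage 6. The third joint was thus higher at stages 4 and 6 and the last joint at stage 5. CIPK14 followed the same course, at 6.62 in the last joint and 9.33 in the third joint at stage 4, 9.56 and 4.88 at stage 5, and 7.55 and 9.40 at stage 6. The differences between stages 5 and 4 were 7.28 ± 0.53 for GRXC1 (limma adjusted p = 1.21e-05) and 7.39 ± 1.21 for CIPK14 (limma adjusted p = 0.0164). KIN14B also turned round, at 7.70 in the last joint and 6.13 in the third joint at stage 4 against 5.70 and 8.54 at stage 5 (-4.41 ± 0.75, limma adjusted p = 0.0187). With the Gapdh difference as a covariate only 1 probe set was called for the difference between stages 5 and 4, and it was positive. KIN14B thus lost this call, and at most 1 of GRXC1 and CIPK14 kept it.

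The last joint was next set against the second joint, its nearest neighbour on the shoot, which was taken 5 days earlier after sowing. Of 57258 probe sets 433 were called (0.756%), 345 higher in the last joint (0.603%) and 88 lower (0.154%). Higher genes included GRXC1, NAC010 and LOX8, described above, 2 heat-shock genes and Pir7b, and lower genes included the clock gene PRR95 and the wall gene CSLA1. The excess of higher calls moved with replicate 1 of the second joint: the median difference over all genes was 0.13, and 0.02 without that array, when 24 were higher and 45 lower of 69 called. After a further quantile normalisation 257 of 417 were higher, 61.6% against 79.7% as deposited. The part of that array in each call was not tested beyond leaving it out.

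SAUR39, an auxin-responsive gene, was among the largest at 8.81 and 9.68 in the last joint against 4.80 and 5.14 in the second joint, with 5.61 and 7.36 in the third joint. The last joint was above both others and the difference from the second joint was 4.28 ± 0.95 (limma adjusted p = 0.0443). Pir7b, an esterase known from defence responses, read 7.89 and 8.21 in the last joint, 4.77 and 5.69 in the second joint and 6.89 and 6.58 in the third joint (2.82 ± 0.38, limma adjusted p = 0.00411). APR-like1, of the adenylylsulphate reductase-like family, read 11.83 and 11.91 in the last joint against 9.70 and 9.46 in the second joint (2.29 ± 0.51, limma adjusted p = 0.0448). CPK9, a calcium-dependent protein kinase, and PEX11-4, a peroxisome division protein, were higher by 2.49 and 2.42 (limma adjusted p = 0.044 and 0.0433). IAA31, an Aux/IAA repressor, was higher by 1.52 (limma adjusted p = 0.0282), against -1.33 for IAA13, which split the 26 members of that family 1 against 1.

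On the lower side ZIP3, named in the files by the locus LOC4336971 and of the family that carries zinc, read 6.43 and 6.72 in the last joint, 9.79 and 9.92 in the second joint and 8.98 and 9.35 in the third joint (-3.28 ± 0.68, limma adjusted p = 0.0327). PRR95, a pseudo-response regulator of the circadian clock, read 7.47 and 7.45 in the last joint, 11.27 and 11.05 in the second joint and 7.87 and 8.08 in the third joint. Only the second joint was high, and last minus the second was -3.69 ± 0.83 (limma adjusted p = 0.0448). CSLH1 was lower by -1.11 (limma adjusted p = 0.0468), and so 2 of 20 cellulose synthase-like genes, CSLA1 and CSLH1, were lower and none higher. GLO3 was lower by -1.43 (limma adjusted p = 0.00734) and AP25 by -2.31 (limma adjusted p = 0.0355).

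Of 27 named genes called between the last and the second joint, 7 kept the call without replicate 1 of the second joint: AP25, Cfi, GLO3, GRXC1, Pir7b, PPT2 and RIBA3. The other 20 then had an adjusted p of 0.0581 to 0.312 in limma. Without replicate 2 of the last joint only GRXC1 and RIBA3 kept it, and without replicate 1 of the last joint 10 did, each with the sign of all 27 unchanged. For genes without overlap between the groups, leaving out an array could not change that sign. With the Gapdh difference as a covariate 6 of the 27 kept the call, and with array weights 2 did. The median size of the 27 differences was 2.12 with the covariate and 2.07 without it. Over the whole array 14 of 433 held whichever array was left out. No list had a called member in this contrast without replicate 1 of the second joint, heat-shock genes included.

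The second joint was then set against the third joint. Of 57258 probe sets 242 were called (0.423%), 64 higher in the second joint (0.112%) and 178 lower (0.311%). This was the smallest count of the 3 contrasts as fitted, but with the Gapdh difference as a covariate it was the largest, at 308 against 34 for last minus the third and 52 for last minus the second. Higher in the second joint were LIR1, PIP2-7 and GLT2 among others, and lower were MRS2-A, 3 heat-shock genes and expansin genes such as EXPB11. Without replicate 1 of the second joint the counts were 35 higher and 12 lower of 47, and the median difference over all genes was -0.01, beside -0.15 with both arrays. After a further quantile normalisation 103 were higher and 103 lower, against a share of higher calls of 26.4% as deposited.

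LIR1, a light-regulated chloroplast protein, read 12.40 and 12.89 in the last joint, 13.49 and 13.54 in the second joint and 10.99 and 11.14 in the third joint, without overlap. It was 5.47-fold higher in the second than in the third joint (2.45 ± 0.41, limma adjusted p = 0.0141). PIP2-7, a plasma membrane aquaporin, read 10.56 and 10.60 in the second joint against 7.65 and 7.65 in the third joint (2.93 ± 0.47, limma adjusted p = 0.0113). With PIP2-5 lower, the 25 aquaporins held 1 call in each direction. GLT2, an NADH-dependent glutamate synthase, read 6.27 and 8.80 in the second joint against 3.4 and 3.29 in the third joint, where it was near the lowest values of the array (4.19 ± 0.88, limma adjusted p = 0.0436).

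PPT2, a phosphoenolpyruvate transporter of the plastid envelope, read 10.02 and 10.06 in the last joint, 10.89 and 11.31 in the second joint and 9.64 and 9.70 in the third joint. The second joint was above both others (1.43 over the third joint, limma adjusted p = 0.0041, and last minus the second -1.06, limma adjusted p = 0.0172). Cfi, chalcone-flavanone isomerase of flavonoid synthesis, and MET1B, a DNA methyltransferase, were also higher than in the third joint by 1.45 and 2.11 (limma adjusted p = 0.0163 and 0.0316). CIPK7, a kinase of the same family as CIPK14, and CAD8C, of the cinnamyl alcohol dehydrogenase family, were higher by 1.41 and 1.57 (limma adjusted p = 0.0222 and 0.0413).

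The heat-shock genes HSP24.1 and HSP81-1 were called lower in the second joint than in each of its neighbours. HSP24.1, a small heat-shock protein, read 9.03 and 9.0 in the last joint, 6.23 and 5.60 in the second joint and 9.04 and 8.77 in the third joint. The other two joints overlapped and the second joint was 8.57-fold below the last and 7.94-fold below the third (second minus the third -2.99, limma adjusted p = 0.0413, and last minus the second 3.1, limma adjusted p = 0.0278). HSP81-1, of the HSP90 chaperones, read 13.33 and 13.09 in the last joint, 11.58 and 11.63 in the second joint and 12.74 and 12.99 in the third joint (second minus the third -1.26, limma adjusted p = 0.0498, and last minus the second 1.60, limma adjusted p = 0.013). HSF1, a heat-shock factor, was lower than in the third joint by -2.63 (limma adjusted p = 0.0378). Of 42 heat-shock genes 3 were called lower in second minus the third, with 33 negative and a median of -0.30, against a median of -0.15 over all genes, of which 0.843% were called. In last minus the second 2 of the 42 were called higher, with a median of 0.10 against 0.13 over all genes, of which 1.35% were called. Without replicate 1 of the second joint 0 of the 42 were called in either contrast.

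MRS2-A, a magnesium transporter, read 9.0 and 8.84 in the last joint, 6.71 and 7.0 in the second joint and 9.96 and 9.46 in the third joint. In the second joint it was lower than in the third joint by -2.85 ± 0.37 (limma adjusted p = 0.00382) and the last joint exceeded it by 2.07 (limma adjusted p = 0.0168). ALADH, of tetrapyrrole synthesis, NIT4, a nitrilase, OsTrx03, a thioredoxin of the f type, EXPB7, a beta-expansin, and BGLU18, a beta-glucosidase, were lower in the second than in the third joint by -2.22, -1.83, -1.82, -1.82 and -1.65 (limma adjusted p = 0.0254, 0.00929, 0.0316, 0.0189 and 0.0286). Of the 21 named genes called in this contrast, Cfi, GLT2, MRS2-A, NIT4 and PPT2 kept the call without replicate 1 of the second joint, and the other 16 had an adjusted p of 0.0558 to 0.266 in limma. Leaving out either array of the third joint in turn, 2 of the 21 kept it each time, and all 21 kept their sign. For genes without overlap between the groups that sign could not change. When the Gapdh difference was a covariate all 21 remained called, and with array weights 1 did.

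Differences of the second joint ran close to those of another pair of joints taken on the same days. The second joint at stage 5 and the last joint at stage 4 were both taken 65 days after sowing, and the third joint at stage 5 and the second joint at stage 4 both on day 60. This pair was set side by side after the values had been seen, and it shares no array with the first. Across 57258 probe sets second minus the third at stage 5 correlated with last minus the second at stage 4 at r = 0.57 (Spearman's rho 0.39), within the same array platform and normalisation. Without replicate 1 of the second joint r was 0.55. With second minus the third at stage 4, taken on days 60 and 55, r was -0.32, and -0.19 without that replicate. The arrays of the second joint at stage 4 enter the 2 differences of stage 4 with opposite signs. A contrast between the 2 correlations is therefore partly built in. The third joint at stage 4 also holds the array with a Gapdh difference of 3.78.

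The calls followed the same course. Last minus the second at stage 4 had 232 calls (0.405%), of which 138 were higher (0.241%) and 94 lower (0.164%). Of the 64 probe sets higher in second minus the third at stage 5, 63 had the same sign there and 44 were also called, 68.8% of the 64 and 31.9% of the 138. Of the 178 lower, 176 had the same sign and 40 were also called, 22.5% of the 178 and 42.6% of the 94, and none was called the other way in either direction. Without replicate 1 of the second joint, 22 of 35 higher and 4 of 12 lower were shared. All 21 named genes had the same sign in last minus the second at stage 4 and 11 were called there: Cfi, CIPK7, GLT2, HSP24.1, HSP81-1, LIR1, MRS2-A, NIT4, PIP2-5, PIP2-7 and PPT2.

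Clock genes can be set out by day in the same way. PRR95 averaged 11.16 in the second joint at stage 5 and 11.11 in the last joint at stage 4, both of day 65, against 7.98 in the third joint at stage 5 and 7.36 in the second joint at stage 4, both of day 60. The mean of 11.11 is the midpoint of 2 arrays far apart, at 9.87 and 12.34. The last joint at stage 2, also of day 60, was at 9.66, between the day 65 groups and the other day 60 groups. Its arrays, at 9.53 and 9.80, were close to the lower array of the last joint at stage 4. On day 70 PRR95 averaged 7.46 in the last joint at stage 5 and 8.76 in the third joint at stage 6, further apart than the last and the third joint of stage 5. GI, which carries clock timing to flowering, averaged 13.003 and 13.18 in the 2 groups of day 65 and 11.50, 11.51 and 11.46 in the 3 groups of day 60, the last of them the last joint at stage 2. CCA1, a morning-phased clock factor, ran opposite, at 7.01 and 7.20 on day 65 and 9.10, 9.16 and 8.48 on day 60 in the third joint at stage 5, the second joint at stage 4 and the last joint at stage 2. In the same order the CCA1 arrays of day 60 were 9.96 and 8.25, 10.07 and 8.24, and 8.84 and 8.13. GI, CCA1, PRR1, PRR73 and DTH7 were not called among the joints of stage 5, the nearest being GI in second minus the third (1.51 ± 0.33, limma adjusted p = 0.0546).

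**Figure D5:**
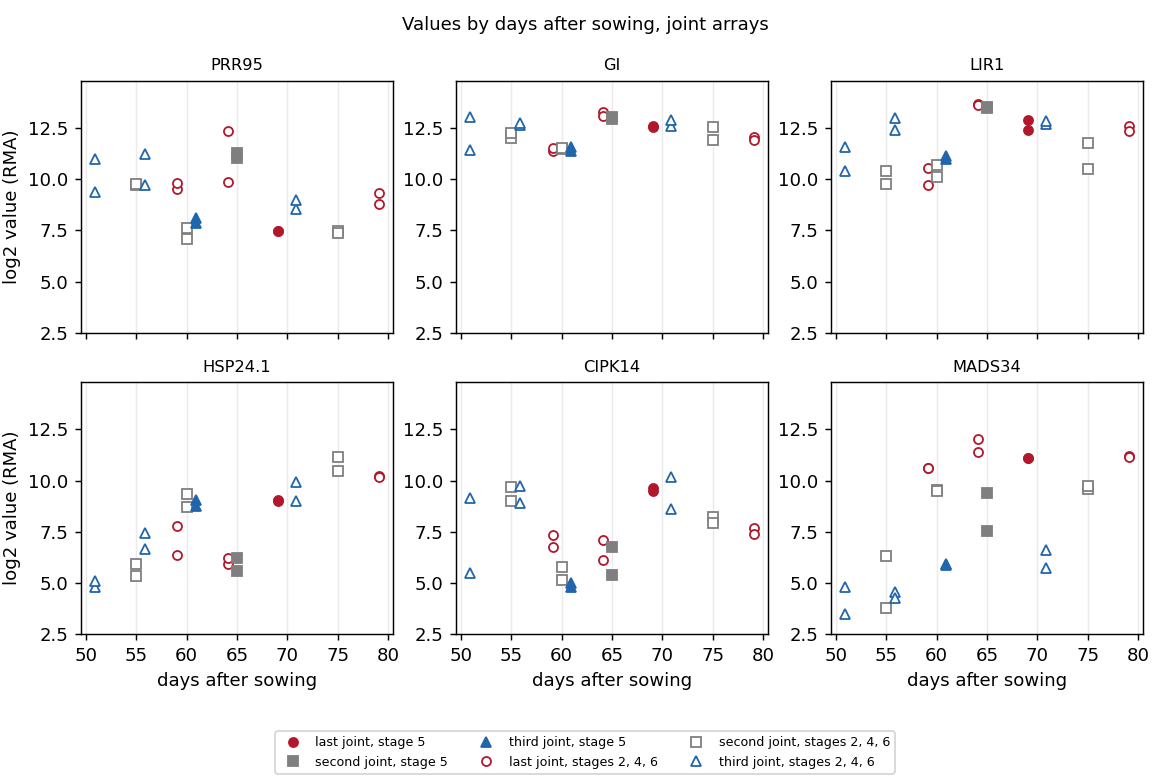
Log2 values of 6 genes by days after sowing (x axis), with filled symbols for stage 5 and open symbols for stages 2, 4 and 6; circles are the last joint, squares the second and triangles the third, set slightly apart for reading. GI, LIR1 and HSP24.1 of the second joint at stage 5 sit beside the last joint at stage 4 on day 65, and PRR95 lies between the wide pair of that joint. CIPK14 is high in both groups of day 70 and as high on average in both joint groups of day 55. MADS34 keeps its order of joints within each day that holds several joints, where stage differs as well.

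The last joint at stage 5 shared day 70 with the third joint at stage 6. CIPK14 averaged 9.56 and 9.40 in these 2 groups, and GRXC1 9.42 and 8.51. CIPK14 was about as high on average in the joint groups of day 55, and GRXC1 was lower there. On day 55 the second joint at stage 2 and the third joint at stage 4 averaged 9.35 and 9.33 for CIPK14, and 4.57 and 8.03 for GRXC1. The third joint at stage 6 minus the second joint at stage 4, days 70 and 60, correlated with last minus the third at stage 5 at r = 0.41, again with no shared array. Of its 2083 calls (3.64%), 894 were higher (1.56%) and 1189 lower (2.08%). Of these, 92 were among the 224 probe sets higher in last minus the third, 41.1% of the 224, and 167 among the 326 lower, 51.2% of the 326, with 1 and 3 called the other way. Last minus the second at stage 4 holds no group of day 70. It correlated with last minus the third at stage 5 at r = 0.40. This pair also sets an upper joint against a lower one, so its r cannot decide the part of the day. Of the 224 higher, 81.7% had the same sign there, beside 89.7% in the pair of days 70 and 60. Of the 326 lower, 91.7% did, beside 88.3%. Of its 138 higher and 94 lower calls, 22 and 21 were shared. Both pairs subtract the same arrays of the second joint at stage 4. Both groups of day 70 also had the high Gapdh difference, and the 2 groups set against them differ in stage as well. MADS34 differed between the groups of day 70, at 11.10 in the last joint at stage 5 and 6.16 in the third joint at stage 6. Leaf position and day after sowing change together within stage 5 and cannot be told apart there. The labels used here give no hour of sampling.

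Whether the second joint was mostly between the other joints depended on its replicate 1. The F-test over both differences was passed by 1068 probe sets (1.87%), and in 647 of them (60.6%) the second joint was the highest or lowest of the 3. Without replicate 1 of the second joint this was so for 272 of 638 (42.6%). A random order of 3 joints would also place the second joint highest or lowest more often than between. The 60.6% is thus no excess. With both arrays, probe sets with the second joint between the others numbered 421. Of these, 155 had the last joint on top, as MADS34 did, and 266 the third joint on top, as LA did.

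The last minus the third difference at stage 5 was also set beside the 2 steps of the second joint. Across 57258 probe sets it correlated at r = 0.35 with second joint stage 6 minus stage 5 and at r = 0.16 with its stage 5 minus stage 4, again with no array in common, and at 0.34 and 0.25 when replicate 2 alone stood for stage 5. Its stage 5 minus stage 4 had 739 calls (1.29%), 219 higher (0.382%) and 520 lower (0.908%), and stage 6 minus stage 5 had 2250 (3.93%), 1615 higher (2.82%) and 635 lower (1.11%). Of the 224 probe sets higher in last minus the third, 22 (9.82%) were also higher in the first step, and of the 326 lower, 73 (22.4%) were also lower. Of the 224 probe sets higher in last minus the third 51 were also higher in the later step (22.8% of the 224 and 3.16% of 1615) and 8 were lower, and of the 326 lower 66 were also lower (20.2% of the 326 and 10.4% of 635) and 5 were higher. Without replicate 1 of the second joint the later step shared 16 of 299 higher (8.74% of its own 183) and 64 of 424 lower (17.8% of 359). The earlier step then shared 20 of 299 higher (25.6% of its own 78) and 9 of 424 lower (22.5% of 40), a larger share of its own calls than the later step in both directions. All arrays of stage 6 had the high Gapdh difference too, and its part in these overlaps was not tested. NAC010 is an example, with means of 8.37, 7.92 and 11.26 in the second joint at stages 4, 5 and 6 beside 10.99 in the last joint at stage 5, and CSLA1 another, with 12.09, 11.68 and 9.44 beside 9.91.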

How the data were processed

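Lamina joints were profiled on 1-colour Affymetrix rice arrays. The deposited log2 values per probe set were normalised by the authors with RMA, per the submitters' processing notes; its version is not given in the sources used here. They run from 2.27 to 14.8 with array medians of 5.08 to 5.17, and the arrays' number, 2 per group, limits the precision. Of 57381 probe sets 123 controls were left out. Probe sets were named through the platform annotation and the RefSeq gene table of assembly ASM3414082v1, by which 22436 tested probe sets matched 1 gene, 95 several and 34727 none, unnamed here. No sequence or coordinate is shown.

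All 26 arrays entered 1 model in limma 3.58.1 (R 4.3.3) with 13 group means and no block, which left 13 residual degrees of freedom (prior degrees of freedom 3.52, prior SD 0.206). The 3 contrasts of stage 5 were tested two-sided, with Benjamini-Hochberg adjustment, and an F-test covered both differences with an adjusted p under 0.05 and no fold limit. Differences of the last minus the third contrast between stages were tested in the same model. At most 0.0419% of values were identical within a pair of arrays, so no pair was counted as 1. On simulated data for last minus the third, with 100 of 57258 probe sets changed by each size, 83% of log2 differences of 1.5 and 98% of those of 3 were recovered, with 7 false calls. The simulated noise was independent and, for each probe set, of the same size in all arrays. It held no outlying array and no difference in RNA quality, so these figures do not carry over to arrays that differ in those ways.

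Genes were named by a rule. For each contrast, the 10 largest rises and 10 largest falls were taken among called probe sets with 1 descriptive gene name whose arrays did not overlap between groups. Up to 3 most changed called members of each of 45 gene lists and 26 fixed genes of leaf angle, flowering and wall synthesis were added, 89 genes in all. Clock genes and PLA2-III were added after their values were seen. A gene is represented by its probe set with the highest mean. The members, lists and tests were chosen with earlier results of these data known. Alternatives are in the closing section.

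The numbers of replicates did not pair arrays: deviations of replicate 1 from its group mean correlated between joints at -0.04, 0.11 and 0.13.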

Additional observations from a re-analysis of the deposited data

Results flagged for a closer look

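The last minus the third difference itself differed between stages, by a test of that difference in the same limma model. Against stage 4 it was called for 308 probe sets, and against stage 6 for 70. Without replicate 2 of the third joint at stage 5 these counts were 5 and 6, and without replicate 2 of the last joint at stage 5 they were 11 and 4. Against stage 4 the named genes were CIPK14 at 7.39, GRXC1 at 7.28, Pir7b at 3.31, IAA31 at 2.43, RIBA3 at 1.62, IAA13 at -1.71 and KIN14B at -4.41 (log2, stage 5 minus stage 4, limma adjusted p = 0.0164, 1.21e-05, 0.0157, 0.0224, 0.0412, 0.0247 and 0.0187). Against stage 6 they were CIPK14 at 6.53, GRXC1 at 6.27 and TUB5 at -1.88 (limma adjusted p = 0.0482, 0.000114 and 0.0385). The 2 arrays of each group were too few for a search for outlying arrays.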

How the results depend on the processing

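Each named gene called in a contrast of stage 5 (41, 27 and 21 genes) kept its direction in the alternatives run on it, and counts moved. Where the arrays of a gene did not overlap between groups, leaving out an array could not change the direction. Direction was not followed for the other called probe sets. With 1 array of the groups compared left out, last minus the third had 16 to 297 calls, last minus the second 16 to 4630, second minus the third 25 to 3878, last minus the third at stage 5 against stage 4 5 to 915 and against stage 6 4 to 102, second joint stage 5 minus stage 4 94 to 4965 and stage 6 minus stage 5 341 to 6407, and any leaf position difference at stage 5, the F-test, 142 to 8531. Leaving out an array of the second joint at stage 5, which enters last minus the third only through the shared variance, gave it 723 calls, against 550. With only the 6 arrays of stage 5 last minus the third had 83, last minus the second 12, second minus the third 55 and the F-test 13. The Gapdh covariate gave 34 and 52 for last minus the third and last minus the second, beside 308 for second minus the third, 1 and 5 for the differences against stages 4 and 6, 1066 for second joint stage 6 minus stage 5 and 346 for the F-test. A test against a 2-fold limit (treat) gave 4, 2 and 1 in the 3 contrasts, 3 and 3 for the differences between stages, and 12 and 18 for the steps of the second joint. Array weights gave 1745, 11 and 10, then 782 and 481, 136 and 466, and 2045 for the F-test, in the same order. With 1 probe set per gene, and so fewer tests, last minus the third had 353 and its difference from stage 4 121. The replicate block, though the numbers do not pair the arrays, gave 694 for last minus the second, against 433, and moved no other count by over 1.5 times. Only the 24 joint arrays, a further quantile normalisation, leaving out dim probe sets, and eBayes with trend and robust settings kept each count within 1.5 times. Where no construction of the alternative shows it, the cause was not tested.

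With 2 arrays a group, a difference of single genes near the threshold is limited by the number of arrays. At an unadjusted p under 0.05 the 3 contrasts held 6972, 9613 and 7762 probe sets. Dim probe sets, whose signal is close to background, bound what can be seen of low genes. At stage 5 RNA quality goes with the last joint, and day after sowing with leaf position.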
